A study of Mus musculus with 12 samples.

Results

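The cytosolic supply of charged amino acids was followed across 12 bulk RNA-seq libraries of sorted mouse regulatory T cells (Tregs) through 36 genes, of 24421 gene symbols in the count table. The members were named by symbol: 20 aminoacyl-tRNA synthetases of the cytosol, 4 genes of asparagine and serine synthesis, 5 folate one-carbon enzymes, 5 amino acid transporter genes and 2 genes known as brakes on the kinase complex mTORC1. Each symbol stood on 1 line of the table, and all 36 passed the filter on low counts that kept 12461 genes. The study deleted Il2ra, which encodes the high-affinity chain CD25 of the receptor for interleukin-2, in Tregs with tamoxifen and compared knockout (KO) with wild-type (WT) cells in each of 2 Treg gates. The gates were effector Tregs (eTreg, low for the homing receptor CD62L) and central Tregs (cTreg, high for CD62L).

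The 4 groups, KO eTreg, WT eTreg, KO cTreg and WT cTreg, held 3 libraries each, named here by group and replicate number (KO eTreg 1), and each library pooled spleen and lymph nodes of 2 to 3 mice. Per the labels, every group carried the R26tomato reporter and the Foxp3eGFPERT2 allele, both as +/+, so the tamoxifen-responsive allele is driven by Foxp3, the gene of the factor that defines Tregs. Mice of every group were injected intraperitoneally with tamoxifen at 2 mg/kg over 5 days and were harvested after a further 10 days. KO cells were further sorted as low for CD25, so KO and WT cells differ by a gate as well as by genotype. Age is not given in the sources used here. The genotype field gives CD25FL/FL for libraries titled WT and CD25WT/WT for libraries titled KO, opposite to the titles and to the field for cell type. The groups follow the titles: Il2ra stood at 112 to 132 TMM-normalised CPM (library-scaled counts) in the 6 libraries titled KO and at 464 to 579.8 CPM in the 6 titled WT. Since KO cells were also sorted as low for CD25, these levels do not by themselves settle the genotype.

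A tRNA synthetase joins one amino acid to its tRNA, and several of these enzymes sit with scaffold proteins in the multisynthetase complex. Serine made from glucose by Phgdh, Psat1 and Psph, or imported, gives one-carbon units to folate through the Shmt and Mthfd enzymes, and T cells use these units for purine and thymidine synthesis as they grow. Interleukin-2 signalling through STAT5, the transcription factor Myc and mTORC1 are known in T cells for raising amino acid import, and lack of amino acids is known to induce synthetase, Asns and Sesn2 transcription through the factor ATF4.

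Total counts ran from 14567313 to 19121577 per library, and the 36 genes took 0.231% to 0.264% of them. The ribosomal RNA precursor gene Rn45s took 3.19% to 3.32% of counts in KO eTreg, 4.11% to 4.34% in WT eTreg, 18.1% to 18.5% in KO cTreg and 22.4% to 24.4% in WT cTreg. The 8 Treg markers, Foxp3 and Cd4 among them, summed to 3499 to 4487 CPM in each library. Of the B cell markers, Ms4a1 was at 0 in 7 of the 12 libraries, and the list summed to 10.8 to 12.4 CPM in KO eTreg, 15.3 to 16.6 CPM in WT eTreg, 7.93 to 9.88 CPM in KO cTreg and 11.8 to 12.9 CPM in WT cTreg, mostly from Cd79b. The CD8 T and NK cell list summed to 22.7 to 27.2 CPM in KO cTreg and 13.8 to 17.1 CPM in WT cTreg, with Eomes at 14.7, 12.6 and 14 CPM in KO cTreg and at 4.49, 3.6 and 3.23 CPM in WT cTreg. This list summed to 7.62, 21.7 and 9.25 CPM in KO eTreg and 7.45 to 10.8 CPM in WT eTreg, so KO eTreg 2 stood apart. Of the NK cell genes, Klrb1c was at 0.346, 11.4 and 0.831 CPM in KO eTreg, 0.277 to 0.396 CPM in WT eTreg, 0.731 to 1.85 CPM in KO cTreg and 0 to 0.321 CPM in WT cTreg, and Ncr1 was at 0 in 11 libraries. The myeloid list summed to 5.34 to 11.6 CPM in KO cTreg and 3.03 to 4.84 CPM in WT cTreg, and to 2.55 to 7.46 CPM in KO eTreg and 3.51 to 6.09 CPM in WT eTreg. In it Itgam was called higher in KO cTreg, at 2.89, 4.51 and 6.13 CPM against 1.28, 0.937 and 2.07 CPM in WT cTreg (edgeR adjusted p = 0.03), and S100a8 was at 0 in 11 libraries. Foxp3 itself was at 187, 158 and 182 CPM in KO eTreg, 256, 231 and 247 CPM in WT eTreg, 233, 217 and 229.6 CPM in KO cTreg and 386, 385 and 407 CPM in WT cTreg. The Treg markers did not share a direction. Of the 8, 3 were called higher and 3 lower in KO cTreg (75%, against 27.5% of all genes called). In KO eTreg 1 was called higher and 2 lower (37.5%, against 6.65%). Ikzf2, for one, was at 780, 783 and 766 CPM in KO cTreg and 545, 620 and 598 CPM in WT cTreg. The part of these transcripts in the results below was not tested, and in bulk libraries fewer cells of a type and less RNA per cell cannot be told apart.

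Levels were set per kb of the principal annotated transcript (GENCODE vM21) to order the genes. In KO cTreg the highest members were Ddit4 at 168 CPM per kb, the glutamine transporter gene Slc1a5 at 73.7 and the lysyl-tRNA synthetase gene Kars at 52.2, and in WT cTreg the same 3 genes led at 123, 66.3 and 54.9 CPM per kb. In KO eTreg Slc1a5, Dars and Ddit4 led at 57.5, 55.9 and 53.8 CPM per kb, and in WT eTreg Slc1a5, Ddit4 and Dars led at 60.8, 54.4 and 50.7. Asns, which makes asparagine from aspartate, was lowest in all 4 groups, at 1.56 CPM per kb in KO eTreg, 1.87 in WT eTreg, 0.459 in KO cTreg and 0.333 in WT cTreg.

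The comparison of KO with WT cTreg addresses what loss of CD25 does in Tregs of the central gate. Of the folate one-carbon enzyme genes 4 of 5 fell in KO cTreg, and so did the large neutral amino acid transporter gene Slc7a5. Of the 36 genes 14 were called (edgeR quasi-likelihood test, p adjusted by Benjamini-Hochberg over 12461 genes and under 0.05), 11 lower and 3 higher in KO cTreg. That is 38.9% of the members, against 27.5% of all genes tested; 12.6% of all genes were called lower and 14.8% higher, counted as 1574 and 1847 genes, or as 2014 and 1546 with an offset for transcript length and GC content. The members' median log2 fold change was -0.06, against 0.0014 over all genes. The KO and WT libraries did not overlap at 16 of the 36 genes, which is the case for 40.4% of all genes tested. Without WT cTreg 1, KO cTreg 2 or KO cTreg 3, the count of called members was 9, 8 and 9. Over all genes the count ran from 2534 to 3490 with 1 library left out, against 3421 with all 12.

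**Figure D1:**
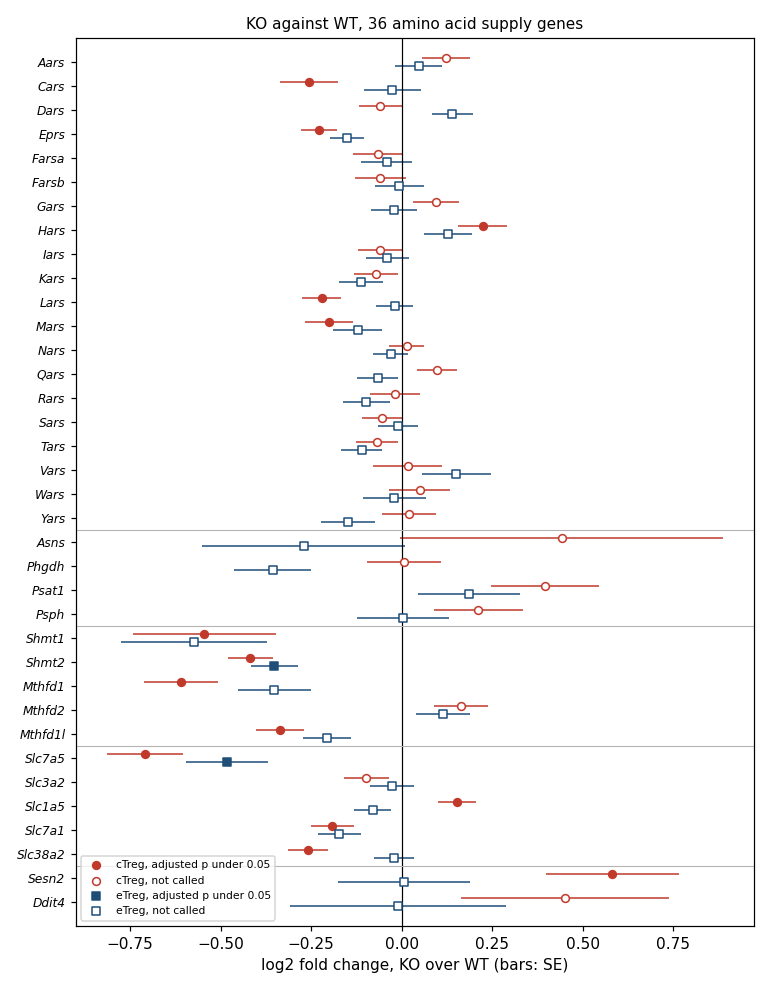
Log2 fold change of KO over WT for the 36 genes, grouped by role from synthetases at the top to mTORC1 brakes at the bottom, in cTreg (circles) and eTreg (squares). Bars are the SE from the edgeR fit of all 12 libraries, 3 per group, and filled symbols have an edgeR adjusted p under 0.05. The lowest filled points are Slc7a5 at -0.71 in cTreg and -0.48 in eTreg, and 4 of 5 folate enzymes are filled and left of 0 in cTreg.

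Of the 5 folate enzyme genes 4 fell in KO cTreg (80%, against 12.6% of all genes called lower and 27.5% called in either direction). In KO eTreg 1 fell (20%, against 3.4% called lower and 6.65% in either direction). Shmt2 (chromosome 10, 127517123 to 127522444, minus strand, mm10) encodes the mitochondrial enzyme that moves a carbon from serine to folate. It stood at 45.5, 48.2 and 45.6 CPM in KO cTreg, against 64.2, 60.3 and 61.8 CPM in WT cTreg, and at 24.4, 27.7 and 27.1 CPM in KO eTreg, against 33.8, 32.5 and 34.9 CPM in WT eTreg. In both gates every KO library lay below every WT library. The log2 fold change was -0.42 ± 0.06 in cTreg and -0.35 ± 0.07 in eTreg (SE, n = 3 per group; edgeR adjusted p = 9.77e-05 and 0.00324), and both calls held in all 22 alternative settings, each library left out in turn among them.

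Mthfd1 (chromosome 12, 76255298 to 76319803, plus strand) encodes the cytosolic enzyme that carries one-carbon units between formate and the folate forms used for purines and thymidylate. It stood at 37.7, 37.6 and 32.8 CPM in KO cTreg and at 60.1, 49.2 and 55.9 CPM in WT cTreg, with no overlap, for a log2 fold change of -0.61 ± 0.10 (edgeR adjusted p = 0.00035). In KO eTreg it stood at 29.8, 34.6 and 27.4 CPM, against 34.6, 43.2 and 39.3 CPM in WT eTreg, where the highest KO library lay just below the lowest WT library and the gene was not called (-0.35 ± 0.10, adjusted p = 0.0501). Mthfd1l (chromosome 10, 3973118 to 4167081, plus strand), which releases formate in mitochondria, stood at 50.7, 57.3 and 54.5 CPM in KO cTreg and 69.9, 62.9 and 72.7 CPM in WT cTreg. Again no KO library reached a WT library, and the log2 fold change was -0.34 ± 0.07 (edgeR adjusted p = 0.00125). In eTreg the KO libraries, at 51.4, 49.3 and 49.4 CPM, also lay below the WT libraries, at 55.2, 61.3 and 56.4 CPM, but the gene was not called (-0.21 ± 0.07, adjusted p = 0.0745).

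Shmt1 (chromosome 11, 60788104 to 60811718, minus strand), the cytosolic counterpart of Shmt2, was low throughout. It stood at 6.82, 7.56 and 6.79 CPM in KO cTreg and 11.2, 8.0 and 11.8 CPM in WT cTreg, and at 4.73, 4.99 and 4.43 CPM in KO eTreg and 4.60, 8.53 and 7.81 CPM in WT eTreg. WT replicate 2 was the lowest of its group in cTreg and WT replicate 1 in eTreg, where it lay within the KO range. The log2 fold changes were alike, -0.54 ± 0.20 in cTreg and -0.57 ± 0.20 in eTreg, yet only the first was called, at an edgeR adjusted p of 0.0489 against 0.108. The cTreg call ended without WT cTreg 1 or 3, WT eTreg 3 or any 1 of the 6 KO libraries (adjusted p up to 0.179). Mthfd2, the mitochondrial dehydrogenase between Shmt2 and Mthfd1l, was the one enzyme of the pathway with values above 0 in both gates (0.16 ± 0.07 in cTreg and 0.11 ± 0.07 in eTreg, adjusted p = 0.12 and 0.441), and it was not called.

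The count ratio of Mthfd2 to Mthfd1 within a library was 1.56, 1.55 and 1.69 in KO cTreg and 0.895, 1.12 and 0.809 in WT cTreg, with no overlap (two-sided exact permutation p = 0.1, the smallest that 3 against 3 libraries allow). It was 1.71, 1.46 and 1.68 in KO eTreg and 1.41, 1.02 and 1.12 in WT eTreg, again with no overlap and the same exact p of 0.1. The ratio shows unequal differences of the pair and not which of them moved. The ratio of Shmt2 to Shmt1 overlapped between KO and WT in both gates (exact permutation p = 0.6 in each).

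**Figure D2:**
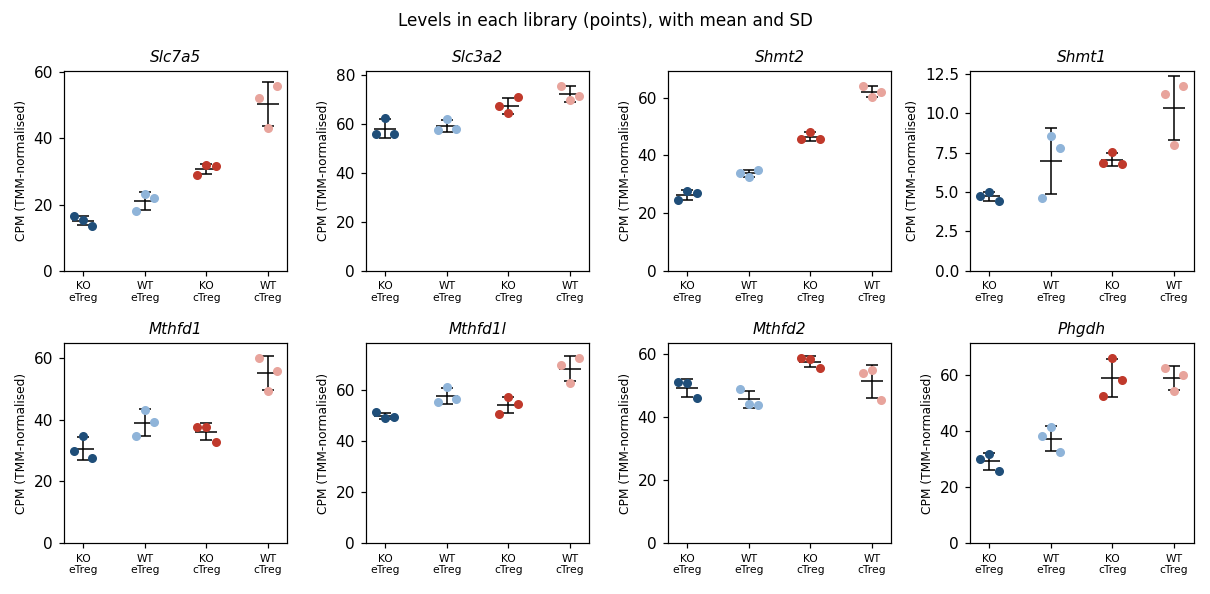
TMM-normalised CPM of 8 genes in each of the 12 libraries (points), with the group mean and SD (n = 3), in the order KO eTreg, WT eTreg, KO cTreg and WT cTreg. KO points lie below all WT points of their gate for Slc7a5, Shmt2 and Mthfd1l in both gates, whereas Slc3a2 and Mthfd2 overlap or lie close.

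The 250 bases before the RefSeq start of Shmt2 are shown because this gene was called lower in KO in both gates and the window holds the letters TTCNNNGAA, the form bound by STAT5, a factor downstream of the interleukin-2 receptor. The sequence is from RefSeq, build GRCm38.p6, chr10:127522445-127522694, minus strand, 5′ to 3′, with the match in capitals at position -55 from the start.
Shmt2: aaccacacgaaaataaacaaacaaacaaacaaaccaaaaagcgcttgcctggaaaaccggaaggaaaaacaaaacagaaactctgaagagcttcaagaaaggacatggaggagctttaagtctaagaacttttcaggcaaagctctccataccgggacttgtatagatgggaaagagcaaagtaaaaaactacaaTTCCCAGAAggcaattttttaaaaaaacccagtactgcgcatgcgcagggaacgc
These letters read the same on both strands. RefSeq windows from 250 bases before to 50 bases after the start were found for 27 of the 36 genes, 1 of them by an older symbol, giving 29 windows; the genes without one were Cars, Hars, Lars, Nars, Rars, Slc1a5, Slc7a5, Vars and Wars. TTCNNNGAA was in 4 of them (13.8%; Aars, Kars, Shmt2 and Slc7a1), against 8.3% of all 32851 windows. A match describes letters and is not evidence of binding. Of the 4 genes only Shmt2 and Slc7a1 were called in KO cTreg, where 27.5% of all genes were called.

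Among the 5 transporters Slc7a5, Slc38a2 and Slc7a1 fell in KO cTreg and Slc1a5 rose (80% called, against 27.5% of all genes). Slc7a5 (chromosome 8, 121881150 to 121907694, minus strand) encodes LAT1, which imports leucine and other large neutral amino acids. It stood at 29.0, 31.9 and 31.5 CPM in KO cTreg, against 52.3, 43.1 and 55.9 CPM in WT cTreg, a log2 fold change of -0.71 ± 0.10 (edgeR adjusted p = 9.90e-05). In KO eTreg it stood at 16.5, 15.2 and 13.6 CPM, against 18.0, 23.2 and 22.0 CPM in WT eTreg, a log2 fold change of -0.48 ± 0.11 (adjusted p = 0.0164). No KO library reached a WT library in either gate. The cTreg call held in all 22 alternative settings, and the eTreg call ended without WT eTreg 2 or 3 or KO eTreg 3 (adjusted p up to 0.0872).

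Slc3a2, the heavy chain (CD98) that carries LAT1 to the surface, was not called in either gate (-0.098 ± 0.06 in cTreg and -0.027 ± 0.06 in eTreg; adjusted p = 0.263 and 0.874). Its levels averaged 67.4 ± 3.26 CPM in KO cTreg and 72.2 ± 3.12 CPM in WT cTreg (SD, n = 3). The count ratio of Slc7a5 to Slc3a2 was 0.431, 0.496 and 0.445 in KO cTreg, against 0.691, 0.620 and 0.784 in WT cTreg. In KO eTreg it was 0.296, 0.244 and 0.243, against 0.314, 0.374 and 0.379 in WT eTreg. In each gate the ratio of every KO library lay below that of every WT library (exact permutation p = 0.1 in each, the smallest possible).

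**Figure D3:**
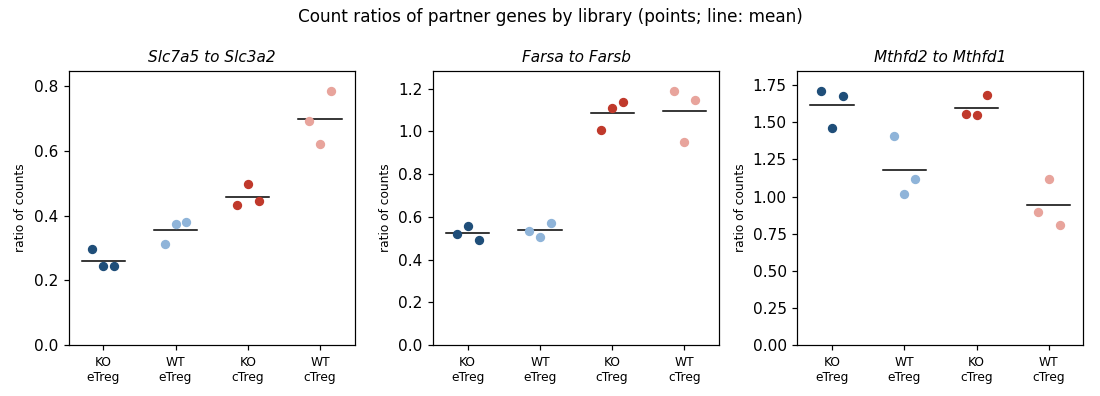
Count ratio of 3 pairs of genes within each library (points) with the group mean (line), in the order KO eTreg, WT eTreg, KO cTreg and WT cTreg. The Slc7a5 to Slc3a2 and Mthfd2 to Mthfd1 ratios separate KO from WT in both gates, and the Farsa to Farsb ratio separates eTreg, at 0.491 to 0.570, from cTreg, at 0.951 to 1.19.

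Slc38a2, which encodes the sodium-coupled neutral amino acid transporter SNAT2, stood at 148, 147 and 160.2 CPM in KO cTreg and 183, 171 and 190.5 CPM in WT cTreg, with no overlap (-0.26 ± 0.06, edgeR adjusted p = 0.00219). In eTreg its value was -0.022 ± 0.06 (adjusted p = 0.892). Slc7a1, the arginine and lysine transporter CAT1, stood at 88.9, 96.3 and 92.5 CPM in KO cTreg and 108, 107 and 103 CPM in WT cTreg (-0.19 ± 0.06, edgeR adjusted p = 0.023). Its KO libraries lay below the WT libraries in both gates, but the eTreg value of -0.17 ± 0.06 was not called (adjusted p = 0.1). The cTreg call of Slc7a1 ended without WT cTreg 1 or 2 or KO cTreg 1 or 3 (adjusted p up to 0.0761). Slc1a5, the glutamine transporter ASCT2, stood at 198, 209 and 205 CPM in KO cTreg and 175, 179 and 197 CPM in WT cTreg, where WT replicate 3 lay just below KO replicate 1 (0.15 ± 0.05, edgeR adjusted p = 0.0395). That call ended without WT cTreg 1 or 2, KO cTreg 2 or 3, WT eTreg 3 or KO eTreg 3 (adjusted p up to 0.158), and with the length and GC offset.

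None of the 4 genes of asparagine and serine synthesis was called between KO and WT in the TMM fit of all 12 libraries. Phgdh, the first enzyme of serine synthesis from glucose, was level in cTreg, at 52.5, 66.0 and 58.2 CPM in KO and 62.5, 54.1 and 59.7 CPM in WT cTreg (0.0056 ± 0.10). In KO eTreg it stood at 29.8, 31.8 and 25.7 CPM, against 38.1, 41.2 and 32.4 CPM in WT eTreg, each KO library below every WT library (-0.36 ± 0.11, edgeR adjusted p = 0.06). Blocked by replicate number in a fit of the 6 eTreg libraries, Phgdh was called lower (-0.36 ± 0.06, edgeR adjusted p = 0.000924). Without a block, Phgdh was also called lower in KO eTreg by the DESeq2 Wald test (adjusted p = 0.0272). The same held in edgeR with library sizes that leave out Rn45s (adjusted p = 0.0371). Psat1, the next enzyme, stood at 45.3, 48.2 and 44.6 CPM in KO cTreg and 32.6, 35.3 and 37.0 CPM in WT cTreg, with no overlap and a log2 fold change of 0.40 ± 0.15 (adjusted p = 0.0715). Its WT eTreg libraries, at 37.1, 56.5 and 39.3 CPM, had replicate 2 well above the others. With the 6 cTreg libraries alone and the replicate number as a block, the edgeR adjusted p for Psat1 was 0.00624. That fit called 3 members higher and 7 lower, and 1370 of all 11734 genes higher and 1180 lower. It did not call Cars (adjusted p = 0.0753), Hars (0.0528), Mars (0.0895), Shmt1 (0.056), Slc7a1 (0.053) or Slc1a5 (0.118), which were called in cTreg without the block. Psph, which releases serine in the last step, had a value of 0.21 ± 0.12 in cTreg and 0.0039 ± 0.13 in eTreg. Asns was at 0.963, 1.22 and 0.594 CPM in KO cTreg and 0.481, 1.23 and 0.307 CPM in WT cTreg, too low for a comparison closer than its SE (0.44 ± 0.44).

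Of the 20 synthetase genes, 4 fell and 1 rose in KO cTreg and none was called in KO eTreg. The called share in cTreg, 25%, is near the 27.5% of all genes. Eprs, the bifunctional glutamyl- and prolyl-tRNA synthetase, stood at 120.5, 122 and 121 CPM in KO cTreg and 141, 142 and 142 CPM in WT cTreg, with no overlap (-0.23 ± 0.05, edgeR adjusted p = 0.00209). In eTreg it stood at 146, 153 and 141 CPM in KO and 154, 168 and 166 CPM in WT cells (-0.15 ± 0.05, adjusted p = 0.0705). Lars, the leucyl-tRNA synthetase, stood at 66.1, 64.9 and 65.0 CPM in KO cTreg and 75.1, 73.0 and 80.4 CPM in WT cTreg (-0.22 ± 0.05, edgeR adjusted p = 0.00499). The calls of Eprs and Lars in cTreg held in all 22 alternative settings. In eTreg the value of Lars was -0.019 ± 0.05.

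Mars, the methionyl-tRNA synthetase, stood at 43.5, 44.1 and 45.1 CPM in KO cTreg and 47.8, 49 and 55.7 CPM in WT cTreg (-0.20 ± 0.07, edgeR adjusted p = 0.0307), with WT replicate 3 well above the others. Its call ended without that library or any 1 of the 3 KO cTreg libraries (adjusted p up to 0.184). Cars, the cysteinyl-tRNA synthetase, stood at 25.4, 24.1 and 22.6 CPM in KO cTreg and 27.4, 28.9 and 29.7 CPM in WT cTreg (-0.26 ± 0.08, edgeR adjusted p = 0.0233), and its call ended without replicate 2 or 3 of either group (adjusted p up to 0.104). Hars, the histidyl-tRNA synthetase, was the one synthetase that rose, at 53.2, 59.1 and 54.3 CPM in KO cTreg and 47.5, 48.2 and 47.1 CPM in WT cTreg (0.22 ± 0.07, edgeR adjusted p = 0.0216). The call ended without WT cTreg 1 or 3 or KO cTreg 2 (adjusted p up to 0.124). Hars shares 7.97% of its annotated exon bases with Hars2 on the opposite strand, so their reads cannot be told apart where counting ignored strand. Of the 8 synthetases known to sit in the multisynthetase complex (Dars, Eprs, Iars, Kars, Lars, Mars, Qars and Rars), 3 fell and 0 rose in KO cTreg (37.5% called). Of the 12 outside it 1 fell and 1 rose (16.7%). Of all genes 27.5% were called, and counts this small do not set the complex apart.

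The other 15 synthetase genes were not called in KO cTreg and had log2 fold changes between -0.070 (Kars) and 0.12 (Aars), with adjusted p-values from 0.193 upwards. In eTreg all 20 ran from -0.15 (Eprs) to 0.15 (Vars). Summed over the 20 genes, KO cTreg libraries held 1522 to 1595 CPM and WT cTreg libraries 1547 to 1604 CPM, and KO eTreg libraries held 1391 to 1434 CPM and WT eTreg libraries 1396 to 1451 CPM. The sums of KO and WT overlapped in both gates, while those of the 5 folate enzymes did not, at 195 to 209 CPM in KO cTreg against 235 to 259 CPM in WT cTreg and 154 to 167 CPM in KO eTreg against 177 to 189 CPM in WT eTreg.

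The synthetase promoters are shown for the core letters TGATGNAA, the form bound by dimers of C/EBP and ATF factors such as ATF4. Searched on both strands, they stood in 5 of 13 synthetase windows (38.5%) and 6 of all 29 member windows (20.7%), against 3.97% of 32851 windows; the 6 genes were Aars, Gars, Iars, Tars, Yars and Asns. The stretches are from RefSeq, GRCm38.p6, 5′ to 3′ on the gene's strand, with the core in capitals, and those of Iars, Yars and a second match in Aars lie after the start and are not printed.
Aars: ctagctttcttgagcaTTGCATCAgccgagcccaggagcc
Gars: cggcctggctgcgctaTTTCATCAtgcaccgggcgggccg
Tars: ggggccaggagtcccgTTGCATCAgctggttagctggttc
Asns: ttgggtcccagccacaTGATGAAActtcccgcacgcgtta
They lie at chr8:111033714-111033753 (plus strand), chr6:55037955-55037994 (plus), chr15:11399650-11399689 (minus) and chr6:7693209-7693248 (minus), with the first base of the core at -112, -30, -15 and -23 from the start. None of the 6 genes with the core was called between KO and WT in either gate. Of the 13 synthetase genes with a window, Eprs and Mars were called, both in cTreg. Of all genes tested 27.5% were called in cTreg and 6.65% in eTreg, so a lack of calls in so few genes does not set them apart. The E-box CACGTG, which reads the same on both strands and is bound by Myc among others, was in 4 synthetase windows (Aars, Farsb, Iars and Tars; 13.8% of member windows, against 7.15% of all windows), and none of those genes was called in KO cells either. Myc itself was at 58.5, 52.1 and 55.9 CPM in KO cTreg and at 157, 139.6 and 177 CPM in WT cTreg (log2 fold change -1.51 ± 0.15), and at 32.4, 32.3 and 34.5 CPM in KO eTreg against 51.5, 77.5 and 79.1 CPM in WT eTreg (-1.07 ± 0.15).

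Of the mTORC1 brakes, Sesn2, which encodes a leucine sensor, rose in KO cTreg. It stood at 11.3, 11 and 10.1 CPM in KO cTreg, against 5.53, 8.29 and 7.76 CPM in WT cTreg, with no overlap (0.58 ± 0.18, edgeR adjusted p = 0.0257). The call ended without WT cTreg 1 or KO cTreg 1 or 2 (adjusted p up to 0.12). In eTreg the value was 0.0072 ± 0.18, and the KO libraries, at 6.29, 8.66 and 4.93 CPM, lay on both sides of the WT libraries, at 6.36, 6.78 and 6.68 CPM. Ddit4, which encodes the stress-induced inhibitor REDD1, stood at 274, 355 and 256 CPM in KO cTreg and 163, 303 and 182 CPM in WT cTreg. WT replicate 2 lay within the KO range, and the gene was not called (0.45 ± 0.29, adjusted p = 0.298). Replicate 2 was the highest library in both groups, and with the 6 cTreg libraries alone and the replicate number as a block the edgeR adjusted p was 0.00525. Over all genes the deviations of same-numbered KO and WT cTreg libraries correlated at -0.105, 0.0047 and 0.062. Whether the numbers pair libraries in this gate is not known, since no label ties a number to a litter or day.

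The same comparison in the effector gate asks what loss of CD25 does in eTreg. Shmt2 and Slc7a5 were called, both lower in KO eTreg, which is 5.56% of the members, against 6.65% of all genes (3.4% lower and 3.25% higher). The count changed with the processing. With the 6 eTreg libraries alone and the replicate number as a block, where the deviations of same-numbered KO and WT libraries correlated at 0.257, 0.341 and 0.166, 9 were called: Eprs, Phgdh, Shmt1, Shmt2, Mthfd1, Mthfd1l, Slc7a5 and Slc7a1 lower and Vars higher. With library sizes that leave out Rn45s, 7 were called, all lower (those 8 without Shmt1), and over all genes the split was 301 higher and 546 lower, against 405 and 424 in the TMM fit. The DESeq2 Wald test called 5, all lower: Eprs, Phgdh, Shmt2, Mthfd1 and Slc7a5. Calls over all genes moved too, to 455 higher and 446 lower with DESeq2. With the replicate block they were 921 higher and 791 lower of 12208 genes. Without WT eTreg 1 the count of members was 5, without KO eTreg 2, the library with the high NK cell sum, it was 4 and without KO eTreg 3 it was 1. Over all genes the count ran from 455 to 890 with 1 library left out, against 829 with all 12. The libraries did not overlap at 12 of 36 genes, 10 with KO below, against 25.2% of all genes.

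The comparisons in cTreg and eTreg share no libraries. The sign of the KO effect was the same in both gates for 26 of 36 members (72.2%), against 68.9% of all genes tested. The difference between the gates was itself tested with the interaction term. None of the 36 genes was called, against 3.8% of all genes (0.803% higher and 3% lower, as 100 and 374 genes, or 235 and 352 with the length and GC offset), 6 had an unadjusted p under 0.05, and DESeq2 and limma-voom also called 0. The lowest adjusted p was that of Slc1a5 (-0.23 ± 0.07, the eTreg effect minus the cTreg effect, edgeR adjusted p = 0.0976), which was called without WT cTreg 3. Slc38a2 (0.24 ± 0.08, adjusted p = 0.113) and Lars (0.20 ± 0.07, adjusted p = 0.158) followed.

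**Figure D4:**
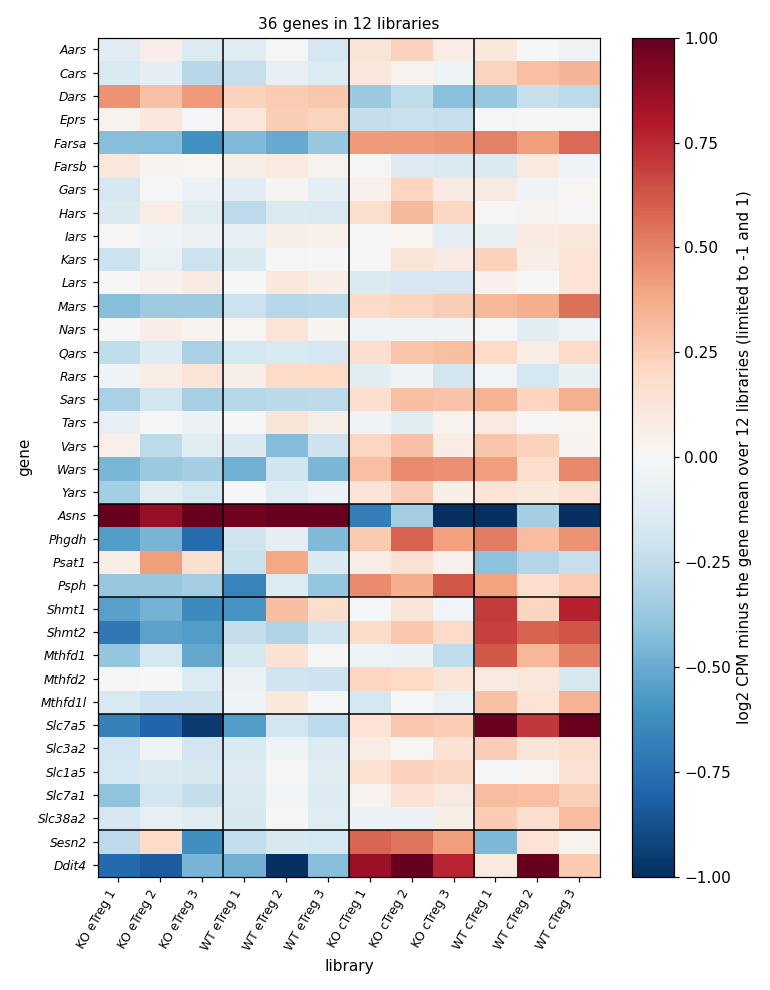
Log2 CPM of each of the 36 genes in each library minus the gene's mean over the 12 libraries, limited to -1 and 1, with groups in the order KO eTreg, WT eTreg, KO cTreg and WT cTreg and genes grouped by role. By group mean Slc7a5 and the folate enzymes Shmt1, Shmt2 and Mthfd1 are highest in WT cTreg, Asns is above its mean in all 6 eTreg libraries and below it in all 6 cTreg libraries, and Dars is above its mean in all 6 eTreg libraries, a difference that in WT cells was -0.0035 with the length and GC offset.

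The comparison of eTreg with cTreg within a genotype asks how the gates differ, and in the TMM fit most of the 36 genes were lower in eTreg, a direction that turned for some of them with the length and GC offset. In WT cells 28 genes were called, 23 lower and 5 higher in eTreg, which is 77.8% of the members, against 71.5% of all genes (35.8% lower and 35.7% higher). In KO cells 28 were also called, 23 lower and 5 higher, against 72% of all genes (35.8% lower and 36.1% higher). The members' median log2 fold change was -0.24 in KO and -0.22 in WT cells, with the median of all genes at 0.00 in each (-0.00014 and 0.00027). Libraries of the gates did not overlap at 30 genes in KO and at 26 genes in WT cells, against 74.6% and 74.9% of all genes. With the offset the calls were 17 lower and 5 higher in KO and 16 lower and 5 higher in WT cells. Over the 11947 genes of that fit, 3478 were called lower and 3323 higher in KO cells and 4007 and 3049 in WT cells. The members' median was then -0.13 in KO and -0.17 in WT cells, and that of all genes -0.0013 and -0.06. In the TMM fit 20 genes were called lower and 4 higher in both genotypes, and none was called in opposite directions. Farsb, Iars, Tars and Psat1 were called in none of the KO or gate comparisons.

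These gate directions depend on gene length and GC content in many of the genes. With the length and GC offset, 16 of the 28 calls in KO cells and 14 of the 28 in WT cells kept their direction, 8 and 11 were lost, and 4 and 3 were called in the opposite direction. Lower in both genotypes in either fit were 11 genes, Farsa, Kars, Mars, Qars, Sars, Wars, Psph, Shmt1, Shmt2, Slc7a5 and Slc7a1, and Asns was the 1 gene higher in both. The Rn45s share of counts also differed between the gates, as given above, and its part in these differences was not tested.

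**Figure D5:**
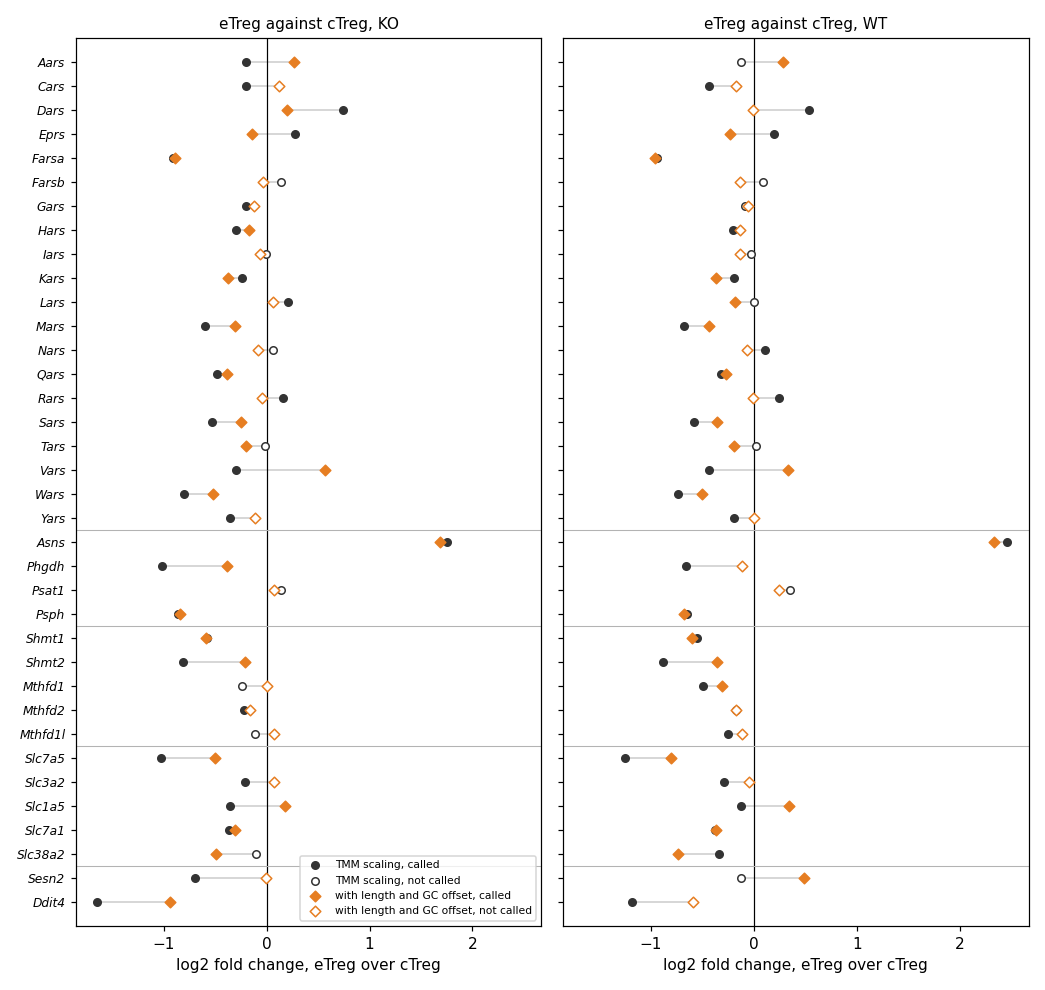
Log2 fold change of eTreg over cTreg for the 36 genes in KO (left) and WT (right) cells, with TMM scaling (circles) and with an added offset for transcript length and GC content (diamonds); filled symbols have an adjusted p under 0.05. Farsa, Wars and Slc7a5 stay left of 0 and Asns right of it with either scaling, whereas Vars and Slc1a5 lie left of 0 with TMM scaling and right of it with the offset in both genotypes.

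Among the 11, Slc7a5 was lower by the largest amount in both genotypes in the TMM fit, while with the offset Farsa was (-0.89 in KO and -0.96 in WT cells, against -0.50 and -0.80 for Slc7a5). Slc7a5 stood at 16.5, 15.2 and 13.6 CPM in KO eTreg and 29.0, 31.9 and 31.5 CPM in KO cTreg (-1.03 ± 0.11, edgeR adjusted p = 4.49e-07), and in WT cells it was lower by 1.25 ± 0.11 (adjusted p = 2.40e-08). Shmt2 differed between the gates by -0.81 ± 0.06 in KO and -0.88 ± 0.06 in WT cells (edgeR adjusted p = 8.60e-09 and 2.30e-09), and with the offset by -0.21 and -0.36. WT cTreg libraries enter both the KO comparison in cTreg and the gate comparison in WT cells, so these values are not independent of each other. Side by side, Slc7a5 had -0.71 for KO over WT cTreg and -1.25 for WT eTreg over WT cTreg, and Shmt2 had -0.42 and -0.88.

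Farsa and Farsb encode the alpha and beta subunits of phenylalanyl-tRNA synthetase, and their mRNAs parted between the gates. Farsa stood at 24.2, 24.2 and 21.3 CPM in KO eTreg, against 43.5, 43.5 and 44.1 CPM in KO cTreg, and at 23.9, 22.9 and 25.0 CPM in WT eTreg, against 46.0, 43.5 and 47.9 CPM in WT cTreg. Every eTreg library lay well below every cTreg library (-0.91 ± 0.07 in KO and -0.94 ± 0.07 in WT cells, edgeR adjusted p = 5.10e-09 and 3.39e-09). Farsb had values of 0.14 ± 0.07 in KO and 0.086 ± 0.07 in WT cells and was not called. The count ratio of Farsa to Farsb was 0.522, 0.555 and 0.491 in KO eTreg and 1.01, 1.11 and 1.14 in KO cTreg, and 0.536, 0.504 and 0.570 in WT eTreg and 1.19, 0.951 and 1.15 in WT cTreg (exact permutation p = 0.1 in each genotype, the smallest possible). Between KO and WT the ratio overlapped in both gates (exact permutation p = 0.9 in cTreg and 0.7 in eTreg). Farsb shares 9.47% of its exon bases with Sgpp2 on the opposite strand.

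Asns, the member with the lowest level, rose in eTreg in both genotypes. It stood at 3.41, 2.84 and 3.21 CPM in KO eTreg, against 0.963, 1.22 and 0.594 CPM in KO cTreg, and at 3.03, 4.84 and 3.45 CPM in WT eTreg, against 0.481, 1.23 and 0.307 CPM in WT cTreg. Every eTreg library was above every cTreg library, and the log2 fold change was 1.75 ± 0.34 in KO and 2.46 ± 0.36 in WT cells (edgeR adjusted p = 0.000215 and 1.21e-05). Of the 3 serine synthesis genes, Psat1 was not called, at 0.14 ± 0.14 in KO and 0.35 ± 0.15 in WT cells, and the other two ran opposite to Asns: Phgdh had -1.02 ± 0.11 in KO and -0.66 ± 0.10 in WT cells and Psph -0.86 ± 0.12 and -0.65 ± 0.13, all called lower. With the offset Phgdh was at -0.39 in KO and -0.12 in WT cells, the second no longer called. Psph shares 10.4% of its exon bases with Cct6a on the opposite strand.

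Dars, the aspartyl-tRNA synthetase, was the synthetase with the largest TMM rise in eTreg, at 127, 114 and 124 CPM in KO eTreg and 71.4, 77.5 and 69.2 CPM in KO cTreg (0.74 ± 0.06) and at 109, 110.2 and 112 CPM in WT eTreg and 71.1, 78.9 and 77.2 CPM in WT cTreg (0.54 ± 0.06), with no overlap. With the offset it was 0.20 in KO cells, still called, and -0.0035 in WT cells. Eprs and Rars were called higher in eTreg of both genotypes in the TMM fit and lay below 0 in both with the offset. Wars, the tryptophanyl-tRNA synthetase, was lower in eTreg in each genotype (-0.80 ± 0.09 in KO and -0.73 ± 0.09 in WT cells), as were Mars (-0.60 ± 0.07 and -0.68 ± 0.07), Sars (-0.53 ± 0.06 and -0.58 ± 0.06) and Qars (-0.48 ± 0.06 and -0.32 ± 0.06). With the offset these values were -0.52 and -0.50 for Wars, -0.30 and -0.44 for Mars, -0.25 and -0.35 for Sars and -0.39 and -0.27 for Qars, all still called. In the TMM fit, where Eprs and Rars of the complex and Vars, Aars and Cars outside it had other signs in KO cells than with the offset, 4 genes of the multisynthetase complex were called higher and 3 lower in KO cells. In WT cells 3 were higher and 3 lower, with the offset signs of Dars, Eprs and Rars below 0. Outside the complex 0 were higher and 9 lower in KO cells and 1 higher and 7 lower in WT cells, where Vars, Yars and Nars changed sign with the offset. In KO cells 87.5% were called in the complex and 75% outside it, against 72% of all genes. In WT cells the shares were 75% and 66.7%, against 71.5%.

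Ddit4 was lower in eTreg, at 88.4, 85.3 and 109.5 CPM in KO eTreg against 274, 355 and 256 CPM in KO cTreg and at 109, 64.7 and 113 CPM in WT eTreg against 163, 303 and 182 CPM in WT cTreg. Every eTreg library lay below every cTreg library (-1.65 ± 0.30 in KO and -1.18 ± 0.30 in WT cells, edgeR adjusted p = 0.000957 and 0.00625), and the WT call ended with the offset. In the TMM fit the 3 folate enzyme genes Shmt1, Shmt2 and Mthfd2 were called lower in KO eTreg and all 5 in WT eTreg; with the offset Mthfd1 lay at 0.0073 and Mthfd1l at 0.072 in KO cells, and no sign changed in WT cells. Of the 5 transporter genes 4 were called lower in KO eTreg and all 5 in WT eTreg, but with the offset Slc1a5 was called higher in both genotypes (0.18 in KO and 0.34 in WT cells) and Slc3a2 was not called, at 0.074 in KO and -0.051 in WT cells. For both lists, the TMM fit called 35.8% of all genes lower in each genotype. In either direction it called 72% of all genes in KO and 71.5% in WT cells. Slc38a2 had -0.10 ± 0.06 in KO cells and was called there with the offset (-0.49).

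A number of the gate calls rested on single libraries. In KO cells the calls lost on leaving out 1 library were Aars and Mthfd2 (without KO eTreg 3; adjusted p = 0.0576 and 0.064), Gars (without KO eTreg 1; 0.053), Vars (without KO cTreg 2; 0.0514), Cars (without KO cTreg 1 or KO eTreg 3; up to 0.123), Shmt1 (without KO cTreg 2 or KO eTreg 3; up to 0.056) and Rars (without KO cTreg 1 or 3 or KO eTreg 2 or 3; up to 0.159). In WT cells they were Hars (without WT eTreg 1; 0.0656), Shmt1 (without WT cTreg 1 or 3 or WT eTreg 1; up to 0.0852), Yars (without WT cTreg 1 or 3 or WT eTreg 2 or 3; up to 0.115), Slc1a5 (without WT cTreg 3, WT eTreg 1 or 3 or KO eTreg 3; up to 0.218) and Mthfd2 (without WT cTreg 1 or 2, WT eTreg 2 or 3 or KO cTreg 3; up to 0.19). Nars in WT cells, called at 0.0495, was lost without any 1 of 10 libraries, all but replicate 1 of WT eTreg and of WT cTreg.

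Genes around the 36 were read from 6 further lists. Of 17 mitochondrial tRNA synthetases 4 fell in KO cTreg (23.5%, against 12.6% of all genes called lower and 27.5% called in either direction) and 0 were called in KO eTreg. Mars2 had a log2 fold change of -0.38 ± 0.11 and Vars2 one of -0.28 ± 0.07 in cTreg (edgeR adjusted p = 0.0124 and 0.00442), and the Mars2 call ended without WT cTreg 3 or KO cTreg 2 (adjusted p up to 0.0564). Of the 3 scaffold genes of the multisynthetase complex 0 were called in KO cTreg, and Aimp2 fell in KO eTreg (-0.51 ± 0.13, adjusted p = 0.0296), a call that ended without replicate 2 or 3 of either eTreg group (up to 0.124), with the 6 libraries alone and with the length and GC offset.

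Of 21 genes of the amino acid stress response 14 could be tested. In KO cTreg 5 of them rose (35.7%, against 14.8% of all genes called higher and 27.5% called in either direction). In KO eTreg 1 rose (7.14%, against 3.25% called higher and 6.65% in either direction). The other 9 were not called in KO cTreg. Stc2, a secreted glycoprotein gene, averaged 1.05 CPM in KO cTreg and 0.231 CPM in WT cTreg (2.17 ± 0.49, edgeR adjusted p = 0.00323). Its WT cTreg libraries, at 0.241, 0.144 and 0.307 CPM, have little depth behind them. Cebpb, a C/EBP factor gene, averaged 8.31 CPM in KO cTreg and 5.09 CPM in WT cTreg (0.71 ± 0.19, adjusted p = 0.0104). The Cebpb call ended without WT cTreg 3 or KO cTreg 3 (adjusted p = 0.0590 at most). In KO eTreg the gene that rose was Eif2ak2, which encodes the double-stranded RNA sensor PKR (0.24 ± 0.06, adjusted p = 0.0144, and up to 0.0897 without WT eTreg 1 or KO eTreg 3). Atf4 mRNA was not called, at 0.07 ± 0.08 in cTreg and -0.01 ± 0.08 in eTreg (the second -0.0077 before rounding). Ddit3 and Trib3 were not called lower or higher between KO and WT in either gate. Ddit3 stood at 11, 10.4 and 12.5 CPM in KO cTreg and 13, 12 and 14 CPM in WT cTreg. Trib3 stood at 2.82, 1.83 and 2.11 CPM in KO cTreg and 2.89, 2.81 and 2.46 CPM in WT cTreg.

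Of 25 genes that carry amino acid signals to mTORC1, 22 were tested. In KO cTreg 3 rose and 3 fell (27.3% called, against 27.5% of all genes), and in KO eTreg 1 rose and 2 fell (13.6%, against 6.65%). Rragd, which encodes a Rag GTPase, fell in both gates, at -1.21 ± 0.21 in cTreg and -1.04 ± 0.18 in eTreg (edgeR adjusted p = 0.0013 and 0.00556), and Sesn1, a paralog of Sesn2, fell as well, at -0.63 ± 0.07 and -0.42 ± 0.07 (adjusted p = 9.34e-06 and 0.00227). All 4 of these calls held in all 22 alternative settings. Sesn3, the other paralog, rose in KO cTreg (0.27 ± 0.06, adjusted p = 0.00194), so the 3 sestrin genes did not share a direction there. Rragb rose by 0.42 ± 0.15 in KO cTreg (adjusted p = 0.0483), a call that was lost in 19 of 22 alternative settings, and Flcn rose by 0.26 ± 0.07 in KO eTreg (adjusted p = 0.0376), lost in 9 of 22.

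Of 16 other amino acid transporter genes 14 were tested. In KO cTreg 3 were higher and 2 lower (35.7% called, against 27.5% of all genes). In KO eTreg 0 were higher and 1 lower (7.14%, near the 6.65% of all genes). Slc6a6, the taurine transporter gene, fell in both gates, at -0.34 ± 0.06 in cTreg and -0.25 ± 0.06 in eTreg (edgeR adjusted p = 0.000428 and 0.0164), though its eTreg call ended without WT eTreg 2 or KO eTreg 1 or 3 (up to 0.0883). Slc43a2, a large neutral amino acid transporter gene, had -0.22 ± 0.07 in cTreg (adjusted p = 0.0194), and Slc16a10, an aromatic amino acid transporter gene, had 0.77 ± 0.21 (adjusted p = 0.0133). The first ended without replicate 1 of either cTreg group (up to 0.0884) and the second without WT cTreg 2 or KO cTreg 3 (up to 0.0712). Slc36a4 was called higher in KO cTreg (0.31 ± 0.11, adjusted p = 0.0451) and lost in 16 of 22 alternative settings.

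Of 19 other enzymes of the folate and methionine cycles 16 were tested. In KO cTreg 3 were higher and 5 lower (50% called, against 27.5% of all genes). In KO eTreg 0 were higher and 2 lower (12.5%, against 6.65%). Gart, which uses one-carbon units in purine synthesis, averaged 71.4 CPM in KO cTreg and 102 CPM in WT cTreg (-0.52 ± 0.05) and 47.5 CPM in KO eTreg and 60.7 CPM in WT eTreg (-0.35 ± 0.05). Gcsh, the H protein of the glycine cleavage system, had -0.72 ± 0.15 in cTreg and -0.91 ± 0.15 in eTreg (edgeR adjusted p = 0.00182 and 0.00112). These 4 calls held in all 22 alternative settings. Tyms, thymidylate synthase, went the other way, at 19.2 CPM in KO cTreg and 10.4 CPM in WT cTreg (0.89 ± 0.20, adjusted p = 0.00517), and Mthfs rose by 0.45 ± 0.13 (adjusted p = 0.0148), a call that ended without WT cTreg 3 or KO cTreg 3 (up to 0.0778), and with the replicate block in the 6 libraries alone.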

How the data were processed

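Gene counts of 12 bulk RNA-seq libraries were analysed, 3 for each of 4 groups. The authors deposited 1 table of raw counts per gene symbol; per the submitters' processing notes HISAT2 2.2.1, Cell Ranger and the mm10 build were named, without roles; for the counting tool, the annotation and strand use, the entry is: not given in the sources used here. Qiagen RNeasy was the RNA kit, per the labels' protocols, and libraries were made with KAPA RNA HyperPrep after rRNA depletion. The table holds 27 symbols that read as month names, none of them a member. The members and lists were chosen with earlier results of these data known.

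The deposited counts were tested with edgeR 4.0.16 (R 4.3.3): filterByExpr, TMM scaling, robust quasi-likelihood fit over all 12 libraries with a mean per group, and Benjamini-Hochberg adjustment over 12461 genes, called under 0.05. The common biological coefficient of variation was 0.0768. The fit was checked on simulated data. SE is the absolute log2 fold change divided by the square root of F. Named genes were all 36 members and, from each further list, called genes ranked by the rule set for them. Atf4, Ddit3 and Trib3 were named outside that rule. Alternatives were DESeq2 1.42.0 (size factors and Wald test), limma 3.58.1 voom, scaling without Rn45s, no filter and a stricter filter, the 6 libraries alone, the replicate block, a length and GC offset over 11947 genes with a value, and each library left out. Libraries of a group differed by 3.74 to 10.4 chi-square per degree of freedom, so none was counted as a duplicate. The deviations of same-numbered libraries correlated above 0.1 in all 3 pairs only for KO and WT eTreg, which hints at pairing there, though no label ties a number to a litter or day. The series' design text calls each pool of mice a biological replicate, so p-values measure the spread between pools; counts per library, 14567313 to 19121577, set the precision of low genes.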

Additional observations from a re-analysis of the deposited data

How the results depend on the processing

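Of 180 pairs of gene and contrast, 92 were called in the TMM fit or under some alternative; of their 2022 values under alternatives 1797 kept their direction and side of the threshold, 130 lost a call, 61 gained one and 34 changed sign. The number of members called between KO and WT eTreg, 2, was 5 with the DESeq2 Wald test, 7 with scaling without Rn45s and 9 with the replicate block in the 6 libraries alone. Over all genes these settings called 455 higher and 446 lower, 301 and 546, and 921 and 791, against 405 and 424 in the TMM fit. The cause was not tested. Leaving out 1 library gave 8 to 15 called members for KO against WT cTreg (3 gave 8 or 9), 1 to 5 for KO against WT eTreg, 23 to 29 for eTreg against cTreg in KO cells, 24 to 28 in WT cells and 0 to 1 for the difference of the KO effects. Called higher were 0 to 4, 0 to 1, 4 to 5, 4 to 6 and 0, and called lower 7 to 11, 1 to 5, 19 to 24, 20 to 23 and 0 to 1. Over all genes the called counts were, in the same order, 2534 to 3490, 455 to 890, 8442 to 9032, 8452 to 9013 and 314 to 570.

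With the length and GC offset, 32 of the 180 pairs changed sign, 9 of them outside the gate comparisons and each under 0.05 in size before. The 11 of eTreg against cTreg in KO cells were Aars (0.27), Cars (0.12), Eprs (-0.14), Farsb (-0.032), Rars (-0.045), Vars (0.57), Nars (-0.082), Mthfd1 (0.0073), Mthfd1l (0.072), Slc3a2 (0.074) and Slc1a5 (0.18). The 12 in WT cells were Aars (0.28), Dars (-0.0035), Eprs (-0.23), Farsb (-0.13), Lars (-0.18), Nars (-0.070), Rars (-0.0078), Tars (-0.19), Vars (0.33), Yars (0.0055), Slc1a5 (0.34) and Sesn2 (0.49). Tars in KO cells changed sign with DESeq2 size factors (0.00077), scaling without Rn45s (0.024) and the DESeq2 Wald test (0.0011). With 1 library left out, Lars in WT cells ran from -0.031 to 0.039, Tars in WT cells from -0.013 to 0.055 and Tars in KO cells from -0.065 to 0.013. Same-numbered libraries correlated at -0.105, 0.0047 and 0.062 for KO and WT cTreg, so the replicate block stands there as an alternative only. Asns, Sesn2 and Shmt1, at under 13 CPM, have the least depth behind them.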
